A study of Mus musculus with 48 samples.

Results

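Transcripts of 10 genes of fatty acid uptake and lipid storage were followed in mouse liver. The rows of the gene count table with the symbols Cd36, Lpl, Fabp1, Fabp4, Plin2, Plin5, Cidec, Cideb, G0s2 and Pnpla2 were taken, 10 of the 22354 genes in the table, and all 10 had enough counts to be tested. Poly(A) RNA was sequenced from the livers of 48 female C57BL/6J mice, 25 wild type (WT) and 23 labelled KO, in which the clock gene Bmal1 was deleted in adipocytes. Livers were collected every 4 h from ZT0 to ZT20, where ZT is zeitgeber time in hours. Each of the 12 groups held 4 mice, except for 5 WT and 3 KO mice at ZT16. Every mouse of both genotypes had been kept on a schedule of 12 h light and 12 h dark, then in constant darkness for 1 day, and had been fasted for 24 h. The labels do not name the Cre driver of the deletion. Ages ran from 28.75 to 105 weeks, and the KO mice were heavier, at 24.2 ± 3.57 g (SD, n = 23) against 21.8 ± 1.997 g (SD, n = 25) in WT.

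During a fast, adipose tissue releases fatty acids, which the liver takes up, oxidises or stores as triglyceride in lipid droplets. CD36 carries long-chain fatty acids across the plasma membrane, lipoprotein lipase (Lpl) frees them from circulating triglyceride, and the binding proteins Fabp1 and Fabp4 carry them inside cells. Perilipins (Plin2, Plin5) coat the droplets, the CIDE proteins (Cidec, Cideb) act in droplet growth and lipoprotein lipidation, and the triglyceride lipase ATGL (Pnpla2), which G0s2 inhibits, breaks the droplets down.

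Without Alb a library held 12841969 to 13009797 counts, and r between replicate libraries ran from 0.905 to 0.986. In the liver, Bmal1 (symbol Arntl) ranged from 0.819 to 43.8 CPM (counts scaled to a common library size) in WT and from 1.58 to 37.04 CPM in KO, and the difference did not pass (log2 difference 0.30, SE 0.16, adjusted p = 0.347 by edgeR's quasi-likelihood test), so the liver gives no check of a deletion made in adipocytes. Hepatocyte markers summed to 19600 to 47420 CPM in WT and 14220 to 50960 CPM in KO, over 7 genes. Of 7 adipocyte markers, 6 were close to absence: Adipoq had no count in 25 libraries, Plin1 in 33 and Lep in 47. The other marker, Adrb3, had counts in every library, with a median of 6.59 CPM and a highest count of 214. Whole-tissue RNA does not tell fewer cells of a type from less RNA per cell.

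The genes spanned a wide range of abundance. Per kilobase of exon, mean WT levels ran from 8753 CPM per kb for Fabp1 through 485.5 for G0s2, 301.8 for Plin2, 184.1 for Cideb, 104.5 for Plin5 and 76.7 for Cd36 to 23.97 for Pnpla2. Cidec (6.21 CPM per kb), Fabp4 (1.82) and Lpl (1.41) were lowest by this measure. Exon length pooled the exons of all annotated transcripts of a gene, 4489 bases for Fabp4 and 10478 for Lpl. It can exceed the length of the transcript made in liver, so the order depends on this choice. Without division by length, WT means were 14.8 CPM for Lpl, 11.5 for Cidec and 8.17 for Fabp4. The ranges over WT livers overlapped between each pair of neighbours in this order except Fabp1 and G0s2. In KO livers Cd36 averaged 127.2 CPM per kb, above the 89.05 of Plin5.

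Cd36 rose in KO liver, and no other member passed the test over all times. At ZT0 the WT livers held 172.1, 229.1, 284.5 and 303.9 CPM of Cd36 and the KO livers 342.3, 398.3, 488.4 and 494.6 CPM. At ZT12 WT livers held 196.8, 217.6, 226.2 and 249.9 CPM and KO livers 398.8, 404.0, 467.4 and 638.3 CPM. At these 2 times every KO liver lay above every WT liver. Of the other members only Lpl at ZT12 and Plin5 at ZT16 had genotypes apart at any time. The share of all genes with genotypes apart was not counted. At ZT4 the WT livers held 196.5, 205.6, 226.3 and 320.4 CPM, and the KO livers 315.3, 318.7, 505.8 and 809.6 CPM. At ZT8 the values were 272.8, 322.0, 402.1 and 600.0 CPM in WT and 446.5, 555.0, 578.4 and 583.5 CPM in KO. The genotypes overlapped narrowly at ZT4 and, through the highest WT liver, at ZT8. At ZT16 the WT livers held 116.1, 180.0, 243.3, 348.1 and 418.5 CPM and the KO livers 251.1, 325.5 and 737.0 CPM. At ZT20 WT livers held 154.8, 223.3, 314.4 and 459.5 CPM and KO livers 190.0, 290.8, 441.9 and 520.4 CPM. These last 2 times overlapped most, but the KO mean was the higher at 6 of 6 times.

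Averaged over all livers, Cd36 stood at 275.4 ± 107.9 CPM in WT (SD, n = 25) and 456.6 ± 151.6 CPM in KO (SD, n = 23). Over all times the log2 difference (KO minus WT) was 0.74 (SE 0.14), a fold of 1.67, with an adjusted p of 0.00327 by edgeR's quasi-likelihood test with Benjamini-Hochberg adjustment over 13644 genes. In this comparison 1.41% of all tested genes passed (193 genes), 0.623% as higher (85) and 0.792% as lower (108), against 1 of the 10 members, as higher. By the size of its p, Cd36 ranked 27 of these 13644 genes. Taken singly, the times gave log2 differences of 1.10 at ZT12, 1.04 at ZT4, 0.80 at ZT0, 0.75 at ZT16, 0.44 at ZT8 and 0.33 at ZT20, and none of these 6 passed (adjusted p from 0.131 to 1 by edgeR). The ZT16 value rested on the KO ZT16 replicate 3 library, without which it was 0.15. With body weight as a covariate the difference was 0.61 (SE 0.16, adjusted p = 0.0972), so the call ended there. Each library was also described by its GC slope, the slope of log2 level on the GC content of genes, in log2 units per 10 points of GC. This slope averaged 0.0977 ± 0.403 in WT (SD, n = 25) and -0.106 ± 0.396 in KO (SD, n = 23), and within groups Cd36 fell as it rose (r = -0.715 and rho -0.663, adjusted permutation p = 0.0001 and 0.00015 over the 10 members, n = 48), with r = -0.684 without the 2 libraries of most extreme slope. With the slope as a covariate Cd36 still rose, by a log2 difference of 0.54 (SE 0.11, adjusted p = 0.00364). At ZT4 the same covariate took the difference from 1.04 to 0.45. Any further part of the slope in these values was not tested.

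**Figure D1:**
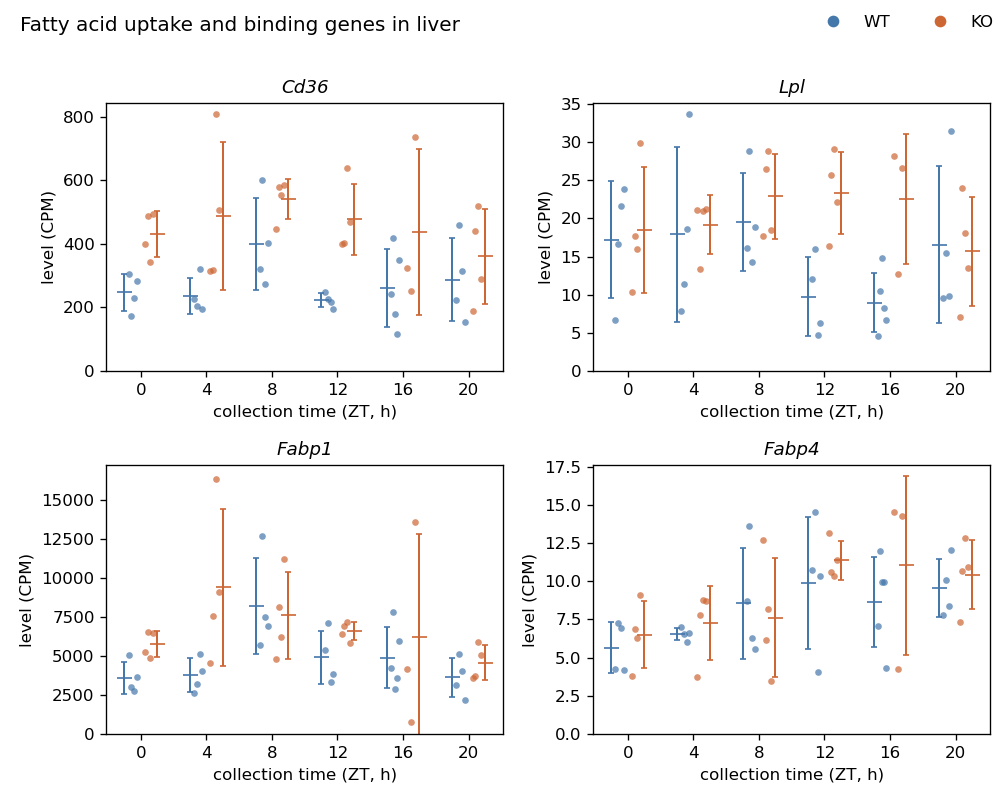
Level of Cd36, Lpl, Fabp1 and Fabp4 (CPM, vertical axis) against collection time (ZT, h) in WT (blue) and KO (orange) livers. Points are livers, and the dash and bar beside them give the mean and SD of the group; the axis starts at 0 and cuts the lower bar of Fabp1 in KO at ZT16. KO livers lie above all WT livers for Cd36 at ZT0 and ZT12 and for Lpl at ZT12.

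Lpl did not pass over all times (log2 difference 0.49, SE 0.18, adjusted p = 0.156). It is scarce in liver, at 14.8 ± 8.13 CPM in WT (SD, n = 25) and 20.3 ± 6.43 CPM in KO (SD, n = 23). At ZT12 the WT livers held 4.75, 6.24, 12.0 and 16.0 CPM and the KO livers 16.4, 22.2, 25.7 and 29.03 CPM. At ZT16 the WT livers held 4.66, 6.65, 8.23, 10.5 and 14.8 CPM and the KO livers 12.7, 26.6 and 28.2 CPM. The genotypes were apart at ZT12 and overlapped through 1 KO liver at ZT16. These times, chosen after their values were seen, gave log2 differences of 1.26 (SE 0.44, adjusted p = 0.907) and 1.33 (SE 0.44, adjusted p = 0.512), so neither passed. The interaction of genotype with time did not pass for Lpl (adjusted p = 0.953). Without ZT16 the log2 difference over all times was 0.32 (adjusted p = 0.458). Within groups Lpl fell as the GC slope rose (r = -0.428 and rho -0.481, adjusted permutation p = 0.0153 and 0.00812, n = 48, r = -0.482 without 2 libraries), and with that slope as a covariate its difference was 0.39 (adjusted p = 0.258).

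Fabp1, the abundant fatty acid binding protein of hepatocytes, had 4840 ± 2292 CPM in WT (SD, n = 25) and 6713 ± 3358 CPM in KO (SD, n = 23). Over all times its log2 difference was 0.50 (SE 0.18, adjusted p = 0.149), and the KO mean was higher at 5 of 6 times. At ZT4 WT livers held 2655, 3232, 4022 and 5148 CPM and KO livers 4548, 7566, 9089 and 16375 CPM, a log2 difference of 1.32 (SE 0.44, adjusted p = 0.129). The lowest KO liver stood below the highest WT liver there. At ZT16 the KO livers of replicates 1, 2 and 3 held 4201, 801.5 and 13600 CPM, which spans the whole WT range at that time (2899 to 7810 CPM). Without the KO ZT16 replicate 2 library, Fabp1 passed over all times (log2 difference 0.58, adjusted p = 0.0227), and without replicate 3 its log2 difference was 0.27. Fabp1 also fell as the GC slope rose (r = -0.657 and rho -0.659, adjusted permutation p = 0.0001 and 0.0003, n = 48, r = -0.618 without 2 libraries), and with the slope as a covariate its log2 difference was 0.24 (adjusted p = 0.443). Fabp4, the adipocyte and macrophage form, was scarce, at 8.17 ± 2.95 CPM in WT (SD, n = 25) and 8.96 ± 3.40 CPM in KO (SD, n = 23), and overlapped at all 6 times (log2 difference 0.14, SE 0.15, adjusted p = 0.604). It too fell as the GC slope rose (r = -0.475 and rho -0.429, adjusted permutation p = 0.011 and 0.0139, n = 48, r = -0.394 without 2 libraries), and its difference was 0.02 with the slope as a covariate (adjusted p = 0.965). Kupffer cell and macrophage markers, 8 genes, summed to 107.5 to 1002 CPM in WT and 98.42 to 548.1 CPM in KO, and none of the 8 was called.

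Both perilipins followed the time of day in both genotypes, and neither passed the test between genotypes over all times. Plin5, a perilipin of oxidative tissues, was lowest at ZT8, where WT livers held 76.5, 87.5, 107.4 and 135.4 CPM and KO livers 70.6, 79.1, 82.4 and 99.5 CPM. At ZT20 WT livers held 187.2, 278.0, 320.9 and 380.7 CPM and KO livers 211.3, 304.4, 412.3 and 512.2 CPM. At ZT0 the values were 209.7, 241.6, 270.5 and 377.5 CPM in WT and 181.5, 236.3, 246.0 and 355.0 CPM in KO. Within each genotype every ZT8 liver lay below every ZT0 and ZT20 liver. A 24 h cosine fitted to log2 CPM had an amplitude (mean to peak) of 0.84 (SE 0.12) in WT and 0.98 (SE 0.10) in KO, with peaks at ZT19.8 and ZT20.1. The rhythm passed in WT (adjusted p = 4.74e-06) and in KO (adjusted p = 1.11e-07) by edgeR's quasi-likelihood test.

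Plin2, the general droplet coat protein of hepatocytes, was highest at ZT0 in WT and at ZT20 and ZT0 in KO, by group means. At ZT0 WT livers held 1596, 1612, 1649 and 1775 CPM and KO livers 1531, 1541, 1972 and 2114 CPM. At ZT8 the values were 531.5, 544.0, 587.0 and 738.4 CPM in WT and 511.1, 700.3, 780.1 and 1497 CPM in KO. Every ZT8 liver was below every ZT0 liver of its genotype, in KO by a narrow gap. At ZT20 WT livers held 814.4, 956.6, 1229 and 1542 CPM and KO livers 1237, 1848, 1957 and 2272 CPM, which overlap. Its amplitude was 0.67 (SE 0.14) in WT and 0.61 (SE 0.17) in KO, with peaks at ZT23.4 and ZT21.9, and the rhythm passed in both (adjusted p = 0.00628 and 0.0171). Of all tested genes 16.3% were called rhythmic in WT and 17% in KO, and of the members 2 of 10 in each. No member passed the test of a difference in rhythm between genotypes (adjusted p = 1 for all 10 by edgeR, 0.00733% of all genes called). Of the members, only Lpl had an unadjusted p under 0.05 in that edgeR test, as had 2.68% of all genes. Each liver came from a different mouse and the times cover 1 cycle, which the cosine describes. Weight and age also differed between times. KO mice weighed 24.5 to 28.4 g at ZT0 and 19.1 to 21.9 g at ZT20. WT mice were 58.5 to 69.75 weeks old at ZT0 and 28.75 to 62.5 weeks at ZT20. Both perilipin rhythms stayed called in 8 alternative fits by edgeR or DESeq2, with age and body weight covariates among them (highest adjusted p 0.0261, Plin2 in KO). Any further part of age or weight was not tested.

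Between genotypes, Plin5 stood at a log2 difference of -0.27 (SE 0.11, adjusted p = 0.201) and Plin2 of 0.19 (SE 0.14, adjusted p = 0.483) over all times. At ZT16 the WT livers held 194.8, 293.2, 312.3, 363.2 and 404.5 CPM of Plin5 and the KO livers 168.3, 173.4 and 191.2 CPM. All 3 KO livers were below all 5 WT livers, and the log2 difference there, a time chosen after its values were seen, was -0.82 (SE 0.28, adjusted p = 0.562). Ages were not matched at ZT16: KO mice were 38, 38 and 105 weeks old and WT mice 38, 38, 93, 93 and 105 weeks. Over 9 alternative fits, an age covariate among them, the ZT16 difference ran from -0.85 to -0.66 for Plin5 and from 1.08 to 1.35 for Lpl. Any further part of age was not tested. No member was called at any single time. The share of all genes called was 0.0147% at ZT0, 0.0366% at ZT4, 0.022% at ZT16 and 0% at ZT8, ZT12 and ZT20. By unadjusted p under 0.05, the members numbered 1 at ZT0, 3 at ZT4, 2 at ZT12 and 3 at ZT16, where 5.53%, 23.3%, 4.39% and 6.63% of all genes had such a p. The 3 members at ZT4 are thus near the share of all genes there.

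**Figure D2:**
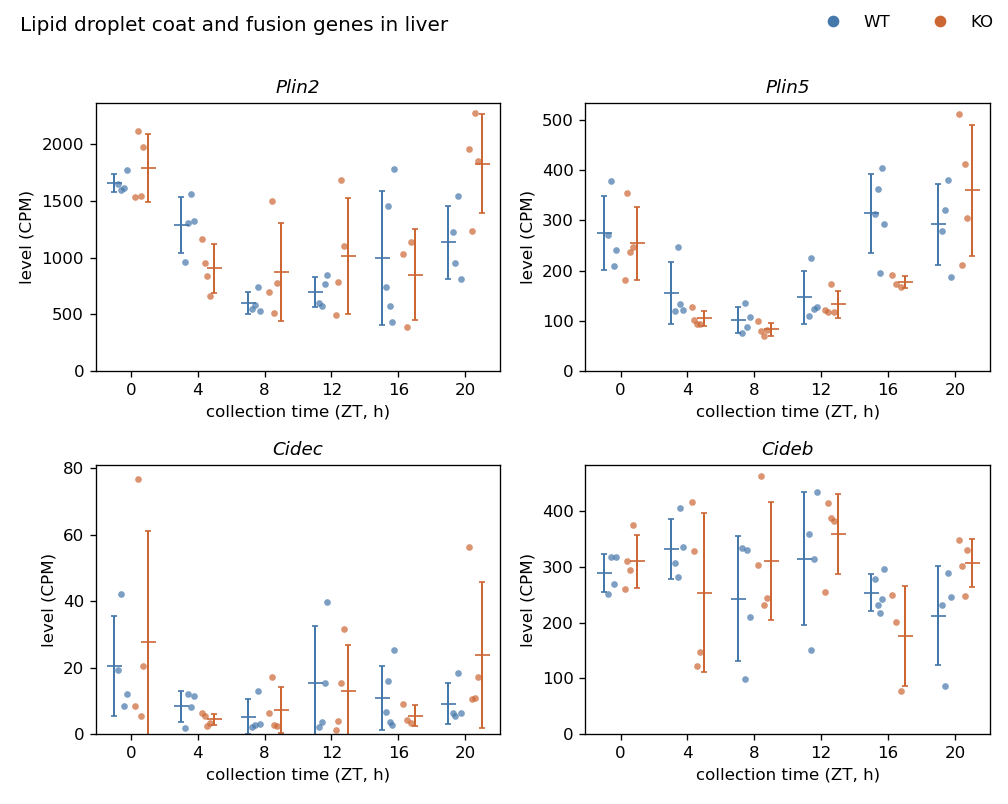
Level of Plin2, Plin5, Cidec and Cideb (CPM, vertical axis) against collection time (ZT, h) in WT (blue) and KO (orange) livers, with points for livers and the mean and SD beside them, where the axis starts at 0 and cuts bars that reach below it. Plin5 is lowest at ZT8 in both genotypes, Plin2 has its highest mean at ZT0 in WT and at ZT20 in KO (1829 CPM, against 1789 CPM at ZT0), and the Cidec values of a group spread widely.

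The start regions of Cd36, the member that rose, and of Plin2 and Plin5, the rhythmic members, are shown to place them beside clock and nuclear receptor motifs. RefSeq windows (build GRCm38.p6, 250 bases before to 50 after a start) matched 8 of 10 members, all but Lpl and Fabp4. Capitals mark CACGTG, the E-box of clock activators, and AGGTCA or its reverse complement TGACCT, the hexamer of nuclear receptors. All 3 genes lie on the minus strand and are written 5′ to 3′ on it: Cd36 at chr5:17835847-17836146, Plin2 at chr4:86670010-86670309 and Plin5 at chr17:56117499-56117798. Plin5 has another window, at chr17:56117249-56117548, which also holds AGGTCA and is not printed.
Cd36: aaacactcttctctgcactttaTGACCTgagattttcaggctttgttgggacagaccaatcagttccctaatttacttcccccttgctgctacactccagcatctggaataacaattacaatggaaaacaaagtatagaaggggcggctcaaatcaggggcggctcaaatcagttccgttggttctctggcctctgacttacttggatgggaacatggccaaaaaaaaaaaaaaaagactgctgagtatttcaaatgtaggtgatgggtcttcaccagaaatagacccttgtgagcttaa
Plin2: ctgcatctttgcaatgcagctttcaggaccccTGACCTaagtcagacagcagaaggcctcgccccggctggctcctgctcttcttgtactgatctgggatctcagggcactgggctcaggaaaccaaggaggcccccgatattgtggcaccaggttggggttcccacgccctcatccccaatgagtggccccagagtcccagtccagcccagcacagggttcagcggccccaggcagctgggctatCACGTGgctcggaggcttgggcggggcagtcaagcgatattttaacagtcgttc
Plin5: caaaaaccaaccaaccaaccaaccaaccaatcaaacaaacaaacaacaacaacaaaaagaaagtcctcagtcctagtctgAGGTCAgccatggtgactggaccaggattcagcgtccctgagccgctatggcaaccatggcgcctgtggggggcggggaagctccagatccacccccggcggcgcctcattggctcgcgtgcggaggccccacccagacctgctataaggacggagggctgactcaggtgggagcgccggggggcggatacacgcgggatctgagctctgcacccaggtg

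Among the 8 matched members, CACGTG was found in 1, Plin2, beginning at position -4 counted from 0 at the start. On either strand, 7.15% of all 32851 windows and 8.09% of the 27025 genes they cover hold it. The hexamer was found in 4 members (Cd36, Plin2, Plin5 and Fabp1), against 18.1% of genes and 16.3% of windows. The windows of the 8 held no exact match to the direct repeat DR1, made of 2 such hexamers with 1 base between them (0.0396% of windows). They held none to the D-box TTATGTAA either (0.938%). Exact matches are so rare that their absence here says little. Sites with mismatches were not searched. These letters are a description of the windows only.

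Neither CIDE gene passed the test between genotypes. Cidec, also called Fsp27, which fuses droplets, ranged from 1.84 through a median of 8.00 to 42.2 CPM in WT (n = 25) and from 1.28 through 6.32 to 76.7 CPM in KO (n = 23). The ranges overlapped at all 6 times, and the log2 difference was 0.03 with an SE of 0.36 (adjusted p = 0.974). Cideb, which lipidates very low density lipoprotein, ranged from 85.5 through 282.3 to 435.5 CPM in WT and from 76.8 through 301.8 to 463.4 CPM in KO. Its log2 difference was 0.04 (SE 0.14, adjusted p = 0.896). In the table's mm9 coordinates Cideb overlaps 2610027L16Rik, so that its count may hold reads of that gene. Cideb rose with the GC slope within groups (r = 0.654 and rho 0.554, adjusted permutation p = 0.00025 and 0.00142, n = 48, r = 0.66 without 2 libraries).

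Pnpla2 and G0s2 varied most within groups, together with Cidec, and neither passed the test between genotypes. The SD of log2 CPM within groups was 1.1 for Pnpla2, 1.2 for G0s2 and 1.3 for Cidec, against 0.51 for Cd36. G0s2 had 422.9 ± 235.5 CPM in WT (SD, n = 25) and 481.8 ± 330.3 CPM in KO (SD, n = 23), a log2 difference of 0.20 (SE 0.27, adjusted p = 0.697). Pnpla2 had 72.4 ± 45.8 CPM in WT and 58.0 ± 64.1 CPM in KO, a log2 difference of -0.35 (SE 0.30, adjusted p = 0.524). At ZT16 the KO livers of replicates 1, 2 and 3 held 408.8, 5.57 and 1642 CPM of G0s2. The same livers held 56.7, 304.6 and 9.72 CPM of Pnpla2. Replicate 2 therefore had the lowest G0s2 and the highest Pnpla2 of all 48 livers, and replicate 3 the highest G0s2 and the lowest Pnpla2. Pnpla2 followed the GC slope closely within groups (r = 0.903 and rho 0.895, permutation p = 1e-05 for each, the smallest that 100000 draws can give, adjusted p = 0.0001, n = 48, r = 0.896 without 2 libraries), and with that slope as a covariate its log2 difference was 0.07 (adjusted p = 0.863). The GC slope of those 3 livers was 0.12, 0.16 and -0.77.

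**Figure D3:**
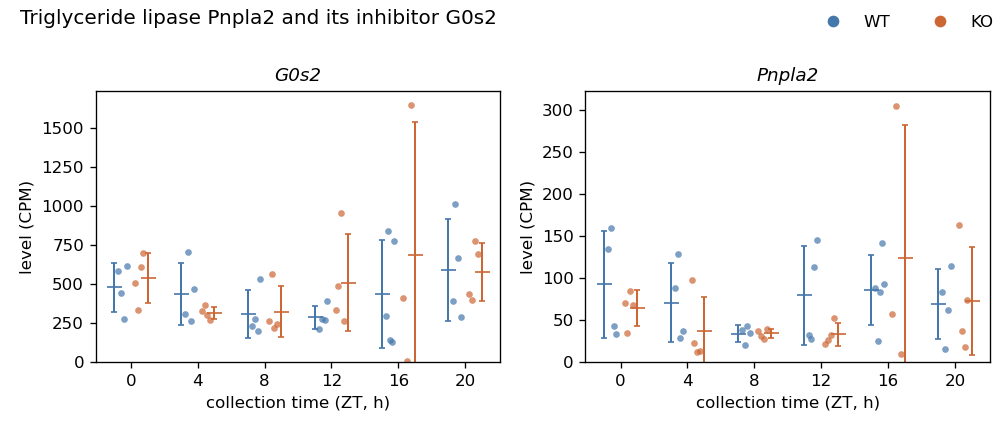
Level of G0s2 and Pnpla2 (CPM, vertical axis) against collection time (ZT, h) in WT (blue) and KO (orange) livers, with points for livers and the mean and SD beside them, where the axis starts at 0 and cuts bars that reach below it. At ZT16 the 3 KO livers run from 5.57 to 1642 CPM for G0s2 and from 9.72 to 304.6 CPM for Pnpla2.

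Within groups, several members varied together from liver to liver. Over the 48 livers with group means removed, 15 of 45 pairs passed (Pearson's r, permutation test with 100000 draws, Benjamini-Hochberg adjusted over the 45), 9 positive and 6 negative, and 13 of them also by Spearman's rho. Cd36 and Fabp1 had r = 0.73 (rho 0.74, adjusted permutation p = 0.000225 for each), and r = 0.72 without the 2 libraries farthest from the median of Cd36. In each pair the 2 libraries were chosen by the gene named first, so extreme values of the other gene could stay. Plin2 and Cidec had r = 0.68 (rho 0.71, adjusted permutation p = 0.000225 for each), and r = 0.65 without 2 libraries. Both pairs held in WT alone (r = 0.79 and 0.74) and KO alone (r = 0.74 and 0.63). Fabp1 and G0s2 had r = 0.75 (rho 0.50, adjusted permutation p = 0.00605 for r), which became 0.42 without 2 libraries. Pnpla2 went against Cd36 (r = -0.73, rho -0.67, adjusted permutation p = 0.0003 for r) and Fabp1 (r = -0.75, rho -0.63, adjusted permutation p = 0.00045 for r). With the GC slope removed from both genes, r became -0.28 for Cd36 with Pnpla2, 0.50 for Cd36 with Fabp1 and 0.72 for Plin2 with Cidec. In all, 10 pairs passed with the slope removed, 7 of them among the 15. The first principal component of the deviations of all tested genes held 36.5% of the variance within groups. Cd36 (r = -0.70), Fabp1 (r = -0.70), Cideb (r = 0.69) and Pnpla2 (r = 0.92) followed it. With it removed 9 pairs passed, 6 of them among the 15. Pairs of other genes were not tested, so the share of them that would pass is not known.

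**Figure D4:**
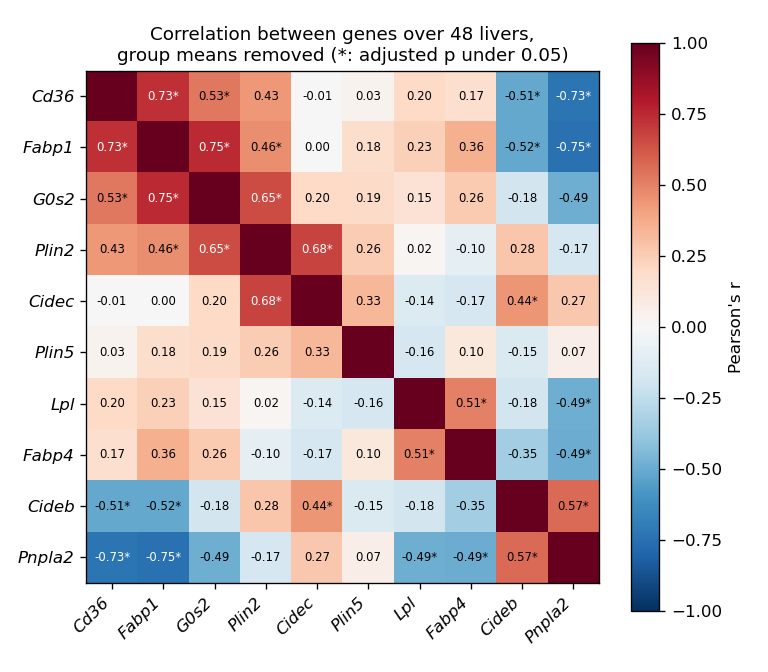
Pearson's r between each pair of the 10 genes over 48 livers after group means were removed, coloured from -1 (blue) to 1 (red), with a star where the adjusted permutation p is under 0.05. Pnpla2 is negative with Cd36 and Fabp1 (r = -0.73 and -0.75), and Plin2 is positive with Cidec (r = 0.68).

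Body weight did not pass as a slope within groups for any member, and no gene of the 13644 was called by edgeR (0%, with 895 at unadjusted p under 0.05). Plin2 had the steepest slope against its error, a log2 change of 0.10 per g (SE 0.04, unadjusted p = 0.00797, adjusted p = 0.567). For Cd36 it was 0.06 per g (SE 0.04, adjusted p = 0.817).

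Wider lists of related genes held few calls, all of them higher in KO. Of all tested genes 1.41% were called, 0.623% as higher and 0.792% as lower. Of 17 tested genes of fatty acid uptake, activation and binding, 2 rose. These were Fabp2, the intestinal-type binding protein (118.9 ± 52.1 CPM in WT, 196.1 ± 89.0 CPM in KO, log2 difference 0.69, SE 0.16, adjusted p = 0.0153), and Slc27a2, a very long chain acyl-CoA synthetase and transporter (log2 difference 0.31, SE 0.08, adjusted p = 0.0299). Of 15 genes of lipoprotein lipolysis and uptake, 2 rose: Vldlr, a lipoprotein receptor (log2 difference 0.57, SE 0.14, adjusted p = 0.0313), and Lipc, hepatic lipase (0.46, SE 0.12, adjusted p = 0.0488). Of 21 tested genes of droplet coats and triglyceride assembly, 1 rose, Fitm1, which acts in droplet formation (0.72, SE 0.20, adjusted p = 0.0488). None of these 5 passed with body weight as a covariate, and Fabp2, Vldlr and Lipc did not pass with the GC slope. Over 10 alternative fits in all, Lipc lost its call in 8, Fitm1 in 5, Vldlr in 4, and Fabp2 and Slc27a2 in 2 each. The calls of Lipc and Fitm1 lay at the threshold and also ended with RLE scaling (adjusted p = 0.0538 and 0.05), with Alb kept (0.0512 and 0.0507) and without the filter (0.0723 and 0.0559), where that of Slc27a2 ended too (0.0585). Lipc was also the 1 call among 10 genes of lipolysis. Of 14 regulators none was called: the log2 difference was 0.16 for Ppara (adjusted p = 0.603), 0.19 for Pparg (adjusted p = 0.335) and -0.54 for Srebf1, which had the smallest p (adjusted p = 0.246). The median log2 difference over the 10 members was 0.17, against -0.00466 over all tested genes. Of the members 8 were above 0, Cidec and Cideb by only 0.03 and 0.04, and the share of all genes above 0 was not counted. As the members were chosen with earlier results of these data known, these values are a description.

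**Figure D5:**
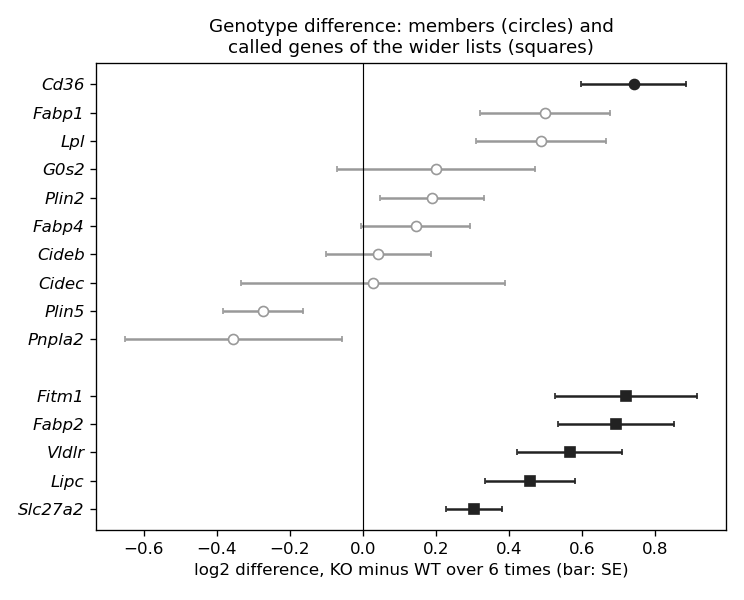
Log2 difference, KO minus WT over all times, with its SE as a bar, for the 10 members (circles) and for the called genes of the wider lists (squares), where filled symbols have an adjusted p under 0.05. Cd36 (0.74) is the only filled circle, and Plin5 and Pnpla2 lie below 0.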

How the data were processed

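Liver RNA of 48 mice was sequenced from stranded poly(A) libraries, per the labels' protocols. Reads were handled with CASAVA and STAR 2.4.1d on build mm9, per the submitters' processing notes. The deposited values are counts per gene on the sense strand, per the file headers and name. The counting program, the annotation and any scaling before deposit are not given in the sources used here. All 48 columns of the table matched a sample by name (0 columns without one). Alb, whose values were no plain counts, was left out of library sizes and tests.

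The analysis used edgeR 4.0.16 under R 4.3.3: filterByExpr (13644 genes left), TMM scaling (factors 0.891 to 1.11) and the quasi-likelihood test, on a model of 12 groups for genotype differences and on a model with 24 h cosine and sine terms per genotype for rhythms. P-values were adjusted over all tested genes within each comparison, with a threshold of 0.05. CPM used the scaled library sizes, and log2 CPM a prior count of 2. GC content came from GENCODE transcripts and was known for 97.6% of tested genes. DESeq2 1.42.0, other scalings, covariates and leaving out libraries were alternatives, and the GC slope was added after the data were seen. The code was tested on simulated data.

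The genes named were the 10 members, from each list up to 4 called genes with the smallest p or, where none passed, the gene with the smallest p, and the 5 genes most like Cd36 over group means; Ppara and Pparg were added after their values were seen. Members and lists were chosen with earlier results of these data known. Replicates are separate mice by their labelled weights and ages.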

Additional observations from a re-analysis of the deposited data

Results flagged for a closer look

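Of 110 checks of a member within a group of 4 or 5 livers, 9 found a liver far from the others of its group. Each had a gap to its nearest neighbour that made up most of the range of the group. Chance gives about 1 in 20 for independent, normally distributed values. CPM values of genes measured in the same libraries need not be either, so the count of 9 is a description.

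Plin5 accounted for 3 of them, all high: 247.276 CPM in WT ZT4 replicate 2 (others 119.792 to 133.785), 225.452 CPM in WT ZT12 replicate 2 (others 110.429 to 126.712) and 173.393 CPM in KO ZT12 replicate 3 (others 117.482 to 122.536). Cidec accounted for 3, all high: 12.9649 CPM in WT ZT8 replicate 3 (others 2.08476 to 3.13587), 18.4517 CPM in WT ZT20 replicate 3 (others 5.42705 to 6.44914) and 56.3496 CPM in KO ZT20 replicate 1 (others 10.5184 to 17.0508). Lpl was low at 13.4407 CPM in KO ZT4 replicate 2 (others 20.9491 to 21.2571). G0s2 was high at 563.901 CPM in KO ZT8 replicate 2 (others 216.193 to 262.273), and Pnpla2 at 97.904 CPM in KO ZT4 replicate 1 (others 11.9122 to 22.9377). The 3 KO livers at ZT16 were too few for this check.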

How the results depend on the processing

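Cd36 was higher in KO over all times, and called, under other scalings, without the filter, with Alb, by DESeq2, with age, GC slope or first principal component as a covariate and without ZT16; leaving out each library gave log2 differences of 0.64 to 0.79 (highest adjusted p 0.013). With body weight as a covariate 0 members were called. Same-numbered mice correlated with r of -0.39 to 0.49 in their deviations over 23 pairs (median 0.12, 13 above 0.1). Of the 23 pairs, 22 share their labelled age. The numbers were not taken as pairs in the main tests, and these values do not settle whether they are pairs. With the replicate block Cd36 had 0.71 (adjusted p = 0.0124), 127 genes were called, and the body weight slope of Cd36 became -0.0683 per g.

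The first principal component was taken from deviations within groups, so as a covariate it narrows the spread without adjusting group means. With it, members called numbered 4 over all times, 3 at ZT4, 1 at ZT12, 1 at ZT16, 4 for the rhythm in WT and 5 in KO, where 4234 of all genes were called at ZT4, 185 at ZT12 and 885 at ZT16, and with it removed 9 pairs of members correlated. All genes called over all times numbered 193, against 122 without the filter, 354 by DESeq2, 37 with body weight and 2872 with this component; rhythmic genes in WT numbered 2227, against 4659 with this component and 4048 with the GC slope, and in KO 2321, against 5659 with this component.

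Without ZT16, 2 members (Cd36 and Fabp1) and 542 genes in all were called at ZT4. Leaving out each library gave 1 to 2 members over all times (2 without KO ZT16 replicate 2, with 368 of all genes), 0 to 3 at ZT4 (3 without KO ZT4 replicate 1, with 3354 of all genes) and 2 to 4 for the rhythm in KO (4 without KO ZT16 replicate 3, with 3721 of all genes). Uncalled differences changed sign with body weight for Plin2 (-0.0422), Cidec (-0.136), Cideb (-0.107) and G0s2 (-0.0588), and with the GC slope for Pnpla2 (0.0739) and Adrb3 (0.0288). Leaving out libraries gave -0.185 to 0.212 for Cidec, -0.0184 to 0.0981 for Cideb, -0.0925 to 0.295 for G0s2 and -0.167 to 0.0175 for Adrb3. The causes were not tested. Of the list genes, Lipc lost its call in 35 of 48 such fits, Fitm1 in 32, Slc27a2 in 8, Vldlr in 6 and Fabp2 in 1. Without KO ZT16 replicate 3 each of these genes lost its call over all times. The adjusted p by edgeR was then 0.0588 for Slc27a2, 0.0725 for Fabp2, 0.132 for Vldlr and Fitm1 and 0.148 for Lipc. In that fit 101 of all genes were called.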

Other observations

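Over the 12 group means of log2 CPM, the genes whose pattern was most like that of Cd36, among 9737 genes compared, were 2810006K23Rik (r = 0.93), Dnajc28 (r = 0.93), Ugt3a1 (r = 0.93), Lipc (r = 0.93) and Gyk (r = 0.92). The points share the 48 libraries, and the genes were picked as the highest, so these values are a description. Differences between genotypes were called for 2810006K23Rik (log2 difference 0.38, SE 0.08, adjusted p = 0.0104 by edgeR) and Lipc, the hepatic lipase (0.46, SE 0.12, adjusted p = 0.0488), and not for Dnajc28 (0.31, adjusted p = 0.0939), Ugt3a1, a UDP-glycosyltransferase (0.45, adjusted p = 0.152), or Gyk, glycerol kinase (0.31, adjusted p = 0.193). From liver to liver within groups, Gyk had r = 0.83 with Cd36 and Ugt3a1 r = 0.77.

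Among the 21 tested genes of droplet coats and triglyceride assembly, edgeR called 6 rhythmic in WT and 6 in KO. Of all tested genes, 16.3% and 17% were. In both genotypes 5 of the 21 were called, a share not counted over all genes. Hilpda, an inhibitor of the lipase ATGL, was among them (adjusted p = 0.0144 in WT and 0.00356 in KO); it was named after its values were seen.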
